A study of Mus musculus with 6 samples.

Results

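The genes described here are 34 genes whose products act in G2 and mitosis, chosen by name from a fixed list and read from the rows of the count table that carry those names. That list was chosen with earlier results of these data known. All 34 had a row, among the 45143 rows with a gene symbol. They were measured by poly(A) RNA-seq in livers of ENTPD-8 knockout mice (3 libraries, KO 1 to KO 3) and wild-type mice (3 libraries, WT 1 to WT 3), all kept in a specific-pathogen-free facility. Entpd8 encodes an ectonucleotidase, a surface enzyme that hydrolyses extracellular nucleotides, and the comparison asks what its loss changes in the liver. The labels give neither sex, age nor time of sampling, and nothing in them ties each library to its own mouse, so the p-values below measure only the spread between these libraries, which may be technical. The labels describe the knockout no further and name no promoter or Cre.

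The libraries held 32768774 to 46473531 counts. The targeted gene Entpd8 had 0.382, 0.723 and 1.09 CPM (counts scaled to a common library total of 1000000) in KO 1 to KO 3, against 39.0, 22.4 and 56.5 CPM in WT 1 to WT 3, a log2 fold change of −5.72 ± 0.48 (SE, adjusted p = 0.00152). The tissue matched its label: the summed level of 6 hepatocyte genes was 58560 to 76910 CPM in knockout and 52400 to 68280 CPM in wild-type libraries. Other cell types also left RNA in the libraries, and those marker levels are given beside the mitosis genes further on. In a bulk sample, fewer dividing cells and less mitotic RNA per cell cannot be told apart.

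Most mitosis genes are silent through G1, are switched on late in S phase and G2, and have their RNA and protein removed after division. In resting cells a repressor complex called DREAM, built on the MuvB core, sits on their promoters. In cycling cells the same core joins B-Myb and FOXM1 and activates them. Adult hepatocytes rarely divide, and dividing resident macrophages or other non-parenchymal cells can carry this RNA as well.

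The promoters of these genes are known for repeated CCAAT boxes, which bind the factor NF-Y, and for the cell cycle homology element TTTGAA or TTCGAA, through which MuvB contacts DNA. Of the 34 genes, 28 had an entry in the RefSeq promoter table (GRCm38.p6), with 30 promoters in all. In the 250 bases before the start, CCAAT on either strand was present in 25 of the 30 promoters (83.3%), against 33.8% of all 32851 promoters in the table. At least 2 CCAAT boxes were present in 18 (60.0%), against 10.1% of all promoters. TTTGAA or TTCGAA on either strand was present in 11 (36.7%), against 17.1%, with the palindrome TTCGAA counted once. A CCAAT box together with either element was present in 11 (36.7%), against 6.02%. The 6 genes without an entry were Ccna2, Aurkb, Incenp, Kif20a, Tpx2 and Foxm1.

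The 6 promoters printed here are examples and not the full range of layouts: many CCAAT boxes with or without the homology element, and the sparser case of Kif11. Each is the 250 bases before the RefSeq start, 5′ to 3′ on the gene's own strand, and capitals mark a CCAAT box or a homology element on either strand.
Cdc20, chr4:118437344-118437593, minus strand: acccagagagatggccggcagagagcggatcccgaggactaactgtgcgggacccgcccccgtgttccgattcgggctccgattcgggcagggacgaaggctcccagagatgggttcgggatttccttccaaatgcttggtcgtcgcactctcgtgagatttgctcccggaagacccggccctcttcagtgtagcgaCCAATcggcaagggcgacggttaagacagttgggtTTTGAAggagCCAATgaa
Top2a, chr11:99024190-99024439, minus strand: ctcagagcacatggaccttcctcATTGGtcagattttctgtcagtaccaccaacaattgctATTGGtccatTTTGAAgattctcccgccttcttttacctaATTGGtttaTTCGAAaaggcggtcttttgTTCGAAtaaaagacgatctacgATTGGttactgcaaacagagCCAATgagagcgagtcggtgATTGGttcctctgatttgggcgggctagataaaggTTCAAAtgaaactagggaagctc
Mki67, chr7:135716380-135716629, minus strand: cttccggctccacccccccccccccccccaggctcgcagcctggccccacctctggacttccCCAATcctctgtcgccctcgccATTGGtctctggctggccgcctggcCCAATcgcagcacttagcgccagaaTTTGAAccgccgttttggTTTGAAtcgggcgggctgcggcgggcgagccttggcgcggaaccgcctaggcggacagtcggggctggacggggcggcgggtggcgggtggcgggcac
Hmmr, chr11:40733438-40733687, minus strand: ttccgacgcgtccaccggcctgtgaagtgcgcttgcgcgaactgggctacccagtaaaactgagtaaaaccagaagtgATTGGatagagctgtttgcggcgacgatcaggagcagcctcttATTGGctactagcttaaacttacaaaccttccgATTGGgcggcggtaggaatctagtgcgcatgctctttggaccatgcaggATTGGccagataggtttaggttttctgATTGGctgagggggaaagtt
Kif11, chr19:37376132-37376381, plus strand: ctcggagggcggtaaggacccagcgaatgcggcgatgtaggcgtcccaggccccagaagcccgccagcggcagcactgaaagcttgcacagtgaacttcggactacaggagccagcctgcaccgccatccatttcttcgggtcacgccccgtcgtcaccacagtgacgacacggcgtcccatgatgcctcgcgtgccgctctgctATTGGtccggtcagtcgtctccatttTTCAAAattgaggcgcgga
Cdk1, chr10:69352913-69353162, minus strand: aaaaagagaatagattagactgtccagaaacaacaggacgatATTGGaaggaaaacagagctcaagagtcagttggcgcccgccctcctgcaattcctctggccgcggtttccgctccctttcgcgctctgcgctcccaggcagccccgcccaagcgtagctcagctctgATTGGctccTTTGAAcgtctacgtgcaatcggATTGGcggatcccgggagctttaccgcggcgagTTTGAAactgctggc
Top2a held 6 CCAAT boxes, 2 matches to TTTGAA and 2 to TTCGAA. Hmmr held 5 CCAAT boxes and neither element, and Mki67 and Cdk1 each held 3 CCAAT boxes and 2 TTTGAA. Cdc20 held 2 CCAAT boxes and 1 TTTGAA, and Kif11 held 1 of each. These are matches of letters, not measured binding. Of the printed promoters, Hmmr alone held neither element, whereas only 4 of the 10 genes with an entry that were called lower (below) held either. Sparser promoters were not printed: Plk1 and Cenpe held 1 CCAAT box and neither element. Anln, Birc5, Ndc80, Nuf2 and Nusap1 held no CCAAT box.

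All 34 mitosis genes had a lower mean level in the knockout than in the wild-type libraries, and all were most abundant in WT 1. Of the 34 genes, 30 passed the filter on low counts; 14 of them fell in the knockout (edgeR quasi-likelihood test, adjusted p below 0.05 over all 14069 genes tested) and 0 rose. Over all genes tested, 10.6% were called lower and 9.80% higher. At an unadjusted p below 0.05, 21 of the 30 were lower, against 19.2% of all genes tested, and 0 were higher; DESeq2 also called 0 higher. The fitted log2 fold change was negative for 30 of 30, against 52.1% of all genes tested, with a median of −1.52 against −0.02 over all genes. The 4 genes not tested were Bub1, Ttk, Ndc80 and Nuf2. Of the 30, 7 had fewer than 10 counts in at least 1 knockout library and so passed the filter partly or wholly through the wild type. Aurkb was among them, with fewer than 10 in every knockout library. Of these 7, Aurkb, Ccnb1, Cenpe and Hmmr were called lower, so their calls carry this limit.

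The levels were low, which sets how firmly any gene can be described. A gene had between 0 and 316 counts in a library, with a median of 19 in knockout and 46.5 in wild-type libraries. At least 10 counts in every library of the group were reached by 23 genes in the knockout and 29 in the wild type. Summed over the 34 genes, the counts were 835, 841 and 1026 in KO 1 to KO 3, against 3464, 993 and 1775 in WT 1 to WT 3.

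In CPM the summed level was 21.3 in KO 1 (95% exact Poisson interval 19.8 to 22.7), 21.0 in KO 2 (19.6 to 22.4) and 21.6 in KO 3 (20.3 to 22.9). It was 95.4 in WT 1 (92.3 to 98.7), 25.4 in WT 2 (23.9 to 27.1) and 49.3 in WT 3 (47.0 to 51.6). The intervals cover counting error only. In this sum the 3 knockout libraries were within counting error of each other. That holds for the sum and not for every gene: Cenpa, for example, had 2.70, 4.04 and 2.75 CPM in KO 1 to KO 3. The sums of the 3 wild-type libraries differed by far more than counting error: WT 1 was 3.75 times WT 2, and WT 3 was 1.94 times WT 2. WT 2 stood at 1.20 times the knockout mean. The group means were 21.3 ± 0.308 CPM in knockout and 56.7 ± 35.6 CPM in wild-type libraries (SD, n = 3 each).

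**Figure D1:**
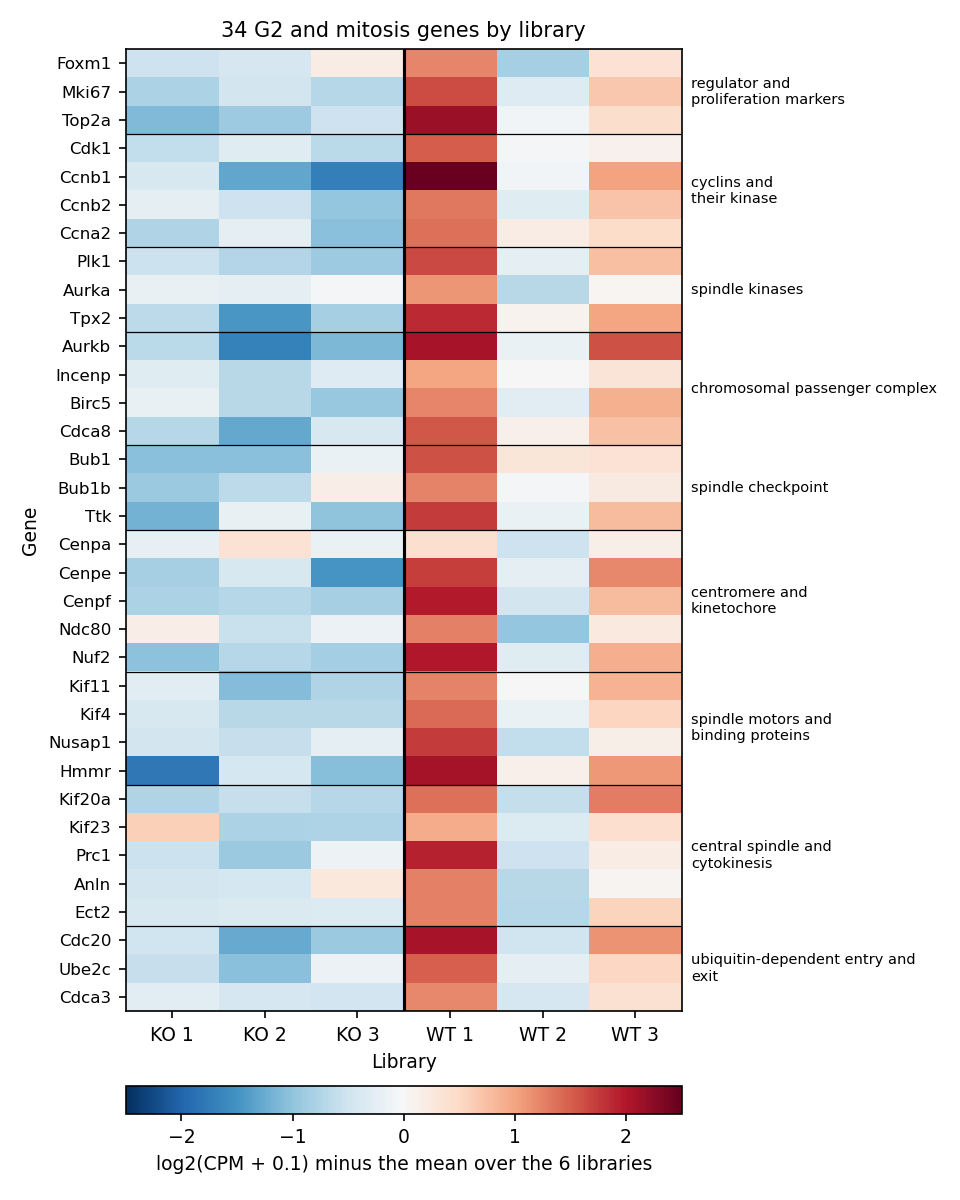
Level of each of the 34 mitosis genes in each library, as log2(CPM + 0.1) minus the gene's mean over the 6 libraries (red above it, blue below), with genes grouped by role and the 3 knockout libraries left of the 3 wild-type libraries. WT 1 is the highest of the 6 libraries in all 34 rows, and WT 3 follows it among the wild-type libraries in each.

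The wild-type libraries kept 1 order across the whole set. WT 1 was the highest of the 6 libraries for 34 of 34 genes, against 16.5% of all genes tested, and the order WT 1, WT 3, WT 2 held for 34 of 34, against 16.9%. These genes share their libraries, so 34 genes in 1 order are not 34 observations. They were also chosen with earlier results of these data known, so the shares over all genes describe this set and test nothing. The level in WT 1 was a median of 2.63 times the mean of WT 2 and WT 3, from 1.47 for Cenpa to 4.44 for Prc1, against a median of 0.993 over all genes tested. It was at least 2 times that mean for 29 of the 34 genes (4.13% of all genes tested) and at least 3 times for 10 (1.29%).

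Read library by library, WT 1 was above every knockout library for 34 genes, WT 3 for 31 and WT 2 for 19 (36.3% of all genes tested for WT 2). The groups did not overlap for those 19 genes, with the knockout below, against 22.0% of all genes tested. For the other 15 genes WT 2, and for 3 of them also WT 3, lay within or below the knockout range. The coefficient of variation among wild-type libraries had a median of 65.6%, against 32.3% among knockout libraries, and it was the larger one in wild type for 30 of 34 genes (61.6% of all genes tested). Among the 4408 tested genes of similar wild-type level, the medians were 22.7% in knockout and 28.1% in wild-type libraries.

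**Figure D2:**
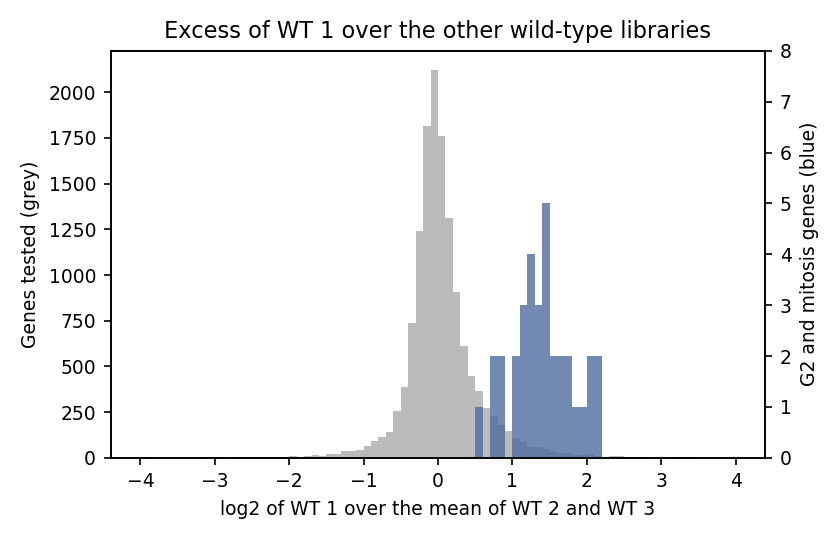
Distribution of the log2 ratio of the level in WT 1 to the mean of WT 2 and WT 3, over all genes tested (grey, left axis) and over the 34 mitosis genes (blue, right axis). The grey distribution centres near a ratio of 0.993, and the 34 mitosis genes lie above that centre, over its right tail, with ratios of 1.47 for Cenpa to 4.44 for Prc1.

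None of the 14 calls held without WT 1, and none held without KO 1. Without WT 1, 0 of the 30 genes passed the threshold, with 14 lower at an unadjusted p below 0.05, 27 negative fold changes and a median of −1.02; the lowest adjusted p was 0.0525, for Tpx2. Over all genes 5.03% were still called lower in that fit. Without WT 2, the library nearest the knockout, 25 of 33 were called lower (11.7% of all genes) and the median was −1.90. Without KO 1 the count was 0 of 33, with 21 at an unadjusted p below 0.05 and a median of −1.70. Only 1.52% of all genes were called lower in that fit. Without KO 2, Hmmr alone was called (4.76% of all genes), and without KO 3, Cdca8 alone (6.04%). Without WT 3 the count was 7 of 30 (6.76% of all genes).

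The general proliferation markers were among the more abundant of the set. Mki67, which encodes the Ki-67 protein that coats mitotic chromosomes, had 1.53, 1.94 and 1.62 CPM in KO 1 to KO 3, against 8.71, 2.15 and 4.42 CPM in WT 1 to WT 3. WT 2 stood just above the highest knockout library and the groups did not overlap. Mki67 averaged 1.70 ± 0.219 CPM in knockout and 5.09 ± 3.33 CPM in wild type (SD, n = 3 each), and it fell with a log2 fold change of −1.58 ± 0.47 (SE, edgeR adjusted p = 0.0486).

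Top2a, the topoisomerase that untangles sister chromatids, had 0.713, 0.823 and 1.11 CPM in KO 1 to KO 3, against 7.61, 1.56 and 2.25 CPM in WT 1 to WT 3. WT 1 stood well above the other 2 wild-type libraries, which were close to each other. Top2a fell by 2.10 ± 0.60 on the log2 scale (SE, edgeR adjusted p = 0.0446). Foxm1, which encodes the activator of the G2 and mitosis programme, had 0.433, 0.473 and 0.778 CPM in KO 1 to KO 3, against 1.68, 0.333 and 0.888 CPM in WT 1 to WT 3. WT 2 was below every knockout library, and Foxm1 did not pass the test (log2 fold change −0.77 ± 0.56, adjusted p = 0.366).

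Cyclins B and A with the kinase Cdk1 drive entry into mitosis, and 2 of these 4 genes fell. Ccnb1, cyclin B1, had 0.407, 0.174 and 0.105 CPM in KO 1 to KO 3, against 3.61, 0.538 and 1.25 CPM in WT 1 to WT 3. The counts behind the knockout values were 16, 7 and 5. WT 1 was 6.71 times WT 2, yet WT 2 was still above every knockout library. Ccnb1 fell by 2.98 ± 0.79 on the log2 scale (SE, edgeR adjusted p = 0.0367); without WT 1 the fitted value was −1.98.

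Ccna2, cyclin A2, which also acts in S phase, had 0.738, 1.10 and 0.589 CPM in KO 1 to KO 3, against 3.58, 1.51 and 1.83 CPM in WT 1 to WT 3. WT 2 and WT 3 were close to each other, and the groups did not overlap. Ccna2 fell by 1.51 ± 0.41 on the log2 scale (edgeR adjusted p = 0.0372); 12.5% of its exon bases overlap Exosc9 on the opposite strand, and the labels do not say whether strand was used in counting. Cdk1 had 0.687, 0.872 and 0.652 CPM in KO 1 to KO 3, against 3.31, 1.08 and 1.19 CPM in WT 1 to WT 3. The Cdk1 groups did not overlap, but its log2 fold change of −1.33 ± 0.47 did not pass (edgeR adjusted p = 0.0816). Ccnb2, cyclin B2, had −1.53 ± 0.53 (adjusted p = 0.0782), with WT 2 inside the knockout range.

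The kinases that build the spindle, with their activator, gave 2 calls of 3. Plk1, polo-like kinase 1, had 0.331, 0.274 and 0.231 CPM in KO 1 to KO 3, against 1.85, 0.436 and 0.944 CPM in WT 1 to WT 3. Each wild-type library was above each knockout library. Plk1 fell by 1.94 ± 0.55 on the log2 scale (SE, edgeR adjusted p = 0.0410).

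Tpx2, the microtubule protein that activates Aurora A on the spindle, had the lowest adjusted p of the set. It had 0.509, 0.249 and 0.442 CPM in KO 1 to KO 3, against 3.39, 0.922 and 1.80 CPM in WT 1 to WT 3, with no overlap. Tpx2 fell by 2.34 ± 0.52 on the log2 scale (SE, edgeR adjusted p = 0.0202), and its fitted value without WT 1 was −1.76. Its partner Aurka, Aurora A itself, did not pass: it had 1.27, 1.22 and 1.43 CPM in KO 1 to KO 3, against 3.28, 0.871 and 1.53 CPM in WT 1 to WT 3. Aurka in WT 2 was below every knockout library, and the fitted log2 fold change was −0.53 ± 0.45 (adjusted p = 0.441).

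The chromosomal passenger complex, the Aurora B kinase with its scaffold and targeting subunits, corrects faulty attachments of chromosomes to the spindle. Aurkb, the kinase, had the lowest knockout level relative to wild type among the tested genes. It had 6, 1 and 4 counts in KO 1 to KO 3, against 57, 10 and 40 counts in WT 1 to WT 3. In CPM these were 0.153, 0.0249 and 0.0841 in the knockout libraries, against 1.57, 0.256 and 1.11 in the wild-type libraries. No knockout library reached the lowest wild-type library. Aurkb fell by 3.44 ± 0.79 on the log2 scale (SE, edgeR adjusted p = 0.0225), a value that rests on the few knockout counts, and without WT 1 the fitted value was −2.93.

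Cdca8, borealin, had 0.458, 0.274 and 0.589 CPM in KO 1 to KO 3, against 2.59, 0.897 and 1.42 CPM in WT 1 to WT 3, with no overlap. It fell by 1.87 ± 0.48 on the log2 scale (SE, edgeR adjusted p = 0.0301). Incenp, the scaffold, had 1.63, 1.22 and 1.60 CPM in KO 1 to KO 3, against 4.13, 2.02 and 2.55 CPM in WT 1 to WT 3. Its groups did not overlap, but it did not pass (−0.97 ± 0.32, edgeR adjusted p = 0.0659). Birc5, survivin, had WT 2 inside the knockout range and a value of −1.49 ± 0.49 (adjusted p = 0.0644).

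The spindle checkpoint kinases, which delay anaphase until every chromosome is attached, were the scarcest group. Bub1 had 0, 0 and 4 counts in KO 1 to KO 3, against 19, 6 and 6 counts in WT 1 to WT 3. The counts of 0 allow up to 0.0763 CPM in KO 1 and 0.0748 CPM in KO 2 (3 counts per library). Ttk, the kinase also called Mps1, had 1, 6 and 2 counts in KO 1 to KO 3, against 31, 6 and 14 counts in WT 1 to WT 3; KO 2 and WT 2 had the same count, although the scaled levels were 0.149 and 0.154 CPM. Neither was tested. Bub1b, BubR1, did not pass (−1.12 ± 0.53, adjusted p = 0.165), with WT 2 inside the knockout range.

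Among genes of the centromere and kinetochore, the attachment site for microtubules, 2 of the 3 tested fell. Cenpe, a kinetochore motor, had 0.255, 0.374 and 0.126 CPM in KO 1 to KO 3, against 1.98, 0.436 and 1.33 CPM in WT 1 to WT 3, and it fell by 2.31 ± 0.62 on the log2 scale (SE, edgeR adjusted p = 0.0362). The counts behind its knockout values were 10, 15 and 6. Cenpf, a large kinetochore protein that accumulates in G2, had 0.305, 0.324 and 0.294 CPM in KO 1 to KO 3, against 2.67, 0.410 and 1.11 CPM in WT 1 to WT 3. The knockout values of Cenpf were nearly equal, and it fell by 2.17 ± 0.64 on the log2 scale (edgeR adjusted p = 0.0481). Nuf2, of the NDC80 complex, was not tested: it had 4, 6 and 6 counts in KO 1 to KO 3, against 56, 9 and 24 counts in WT 1 to WT 3. Ndc80, also untested, overlapped, with 9, 4 and 8 counts in KO 1 to KO 3 against 22, 2 and 9 counts in WT 1 to WT 3.

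Cenpa had the fold change nearest to 0 among the tested genes. It encodes the histone H3 variant that marks centromeres, and it had 2.70, 4.04 and 2.75 CPM in KO 1 to KO 3, against 4.13, 2.15 and 3.47 CPM in WT 1 to WT 3. The groups overlapped almost wholly, and the log2 fold change was −0.04 ± 0.30 (edgeR adjusted p = 0.941). Cenpa made up 12.7%, 19.3% and 12.8% of the summed mitosis counts in KO 1 to KO 3, against 4.33%, 8.46% and 7.04% in WT 1 to WT 3. The exact binomial intervals, again for counting error only, were 10.5 to 15.1%, 16.6 to 22.1% and 10.8 to 15.0% in KO 1 to KO 3, against 3.68 to 5.06%, 6.80 to 10.4% and 5.90 to 8.33% in WT 1 to WT 3. The 2 sets of intervals did not meet, which held for 1 of the 34 genes with the knockout shares above. Without regard to intervals, the knockout shares lay above every wild-type share for 6 genes (Anln, Aurka, Cdca3, Cenpa, Ect2 and Foxm1) and below for 7. Shares of 1 sum are tied to each other, so a gene that falls less than the rest gains share. No matching count was made over all genes tested, so these 2 counts have no share to be read against. Aurka made up 5.99%, 5.83% and 6.63% in KO 1 to KO 3, against 3.43%, 3.42% and 3.10% in WT 1 to WT 3. Per kilobase of exon, Cenpa was the most abundant member in knockout libraries, with a mean level of 0.540 CPM per kb, against 0.555 CPM per kb in wild-type libraries; Cdc20, at 0.318 in knockout, was the most abundant in wild type with 1.54.

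Of the spindle motors and microtubule-binding proteins, 2 of 4 fell. Kif11, the Eg5 motor that pushes spindle poles apart, had 0.942, 0.498 and 0.652 CPM in KO 1 to KO 3, against 2.89, 1.15 and 2.22 CPM in WT 1 to WT 3. WT 1 and WT 3 were closer to each other here than for most of the set. Kif11 fell by 1.58 ± 0.41 on the log2 scale (SE, edgeR adjusted p = 0.0328). Hmmr, which binds microtubules and hyaluronan, had 0.0763, 0.349 and 0.189 CPM in KO 1 to KO 3, against 2.45, 0.564 and 1.19 CPM in WT 1 to WT 3. Its lowest knockout value came from 3 counts, and it fell by 2.75 ± 0.67 on the log2 scale (edgeR adjusted p = 0.0272). Kif4, a chromosome-bound motor, did not overlap between groups yet did not pass (−1.58 ± 0.50, adjusted p = 0.0578). Nusap1, a spindle-bundling protein, overlapped (−1.37 ± 0.65, adjusted p = 0.173).

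The central spindle and cytokinesis genes, which act last in division, gave 1 call of 5. Kif20a, a motor of the central spindle, had 0.585, 0.673 and 0.610 CPM in KO 1 to KO 3, against 2.89, 0.666 and 2.69 CPM in WT 1 to WT 3. WT 2 was level with the knockout libraries while WT 1 and WT 3 were alike, and this was the 1 called gene whose groups overlapped. Kif20a had −1.74 ± 0.52 (SE, edgeR adjusted p = 0.0495). Its call carries a further limit: 29.3% of its exon bases overlap Cdc23 on the opposite strand, and Cdc23 was itself lower (−0.62 ± 0.15, adjusted p = 0.0242).

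The other 4 of this group did not pass; WT 2 lay inside the knockout range for Prc1 and Kif23 and below every knockout library for Ect2 and Anln. Prc1, which bundles the central spindle, had 0.687, 0.498 and 0.946 CPM in KO 1 to KO 3, against 4.19, 0.692 and 1.19 CPM in WT 1 to WT 3, with the highest WT 1 excess of the set (−1.50 ± 0.66, edgeR adjusted p = 0.144). Ect2, which activates RhoA at the cleavage site, had 1.04, 1.07 and 1.09 CPM in KO 1 to KO 3, against 3.50, 0.820 and 2.11 CPM in WT 1 to WT 3 (−1.00 ± 0.47, adjusted p = 0.170). The values were −0.67 ± 0.55 for Anln, anillin (adjusted p = 0.421), and −0.78 ± 0.65 for the motor gene Kif23 (adjusted p = 0.429).

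Genes for ubiquitin-driven entry and exit gave 1 call of 3. Cdc20 activates the anaphase-promoting complex, the ubiquitin ligase that destroys cyclin B and securin at anaphase. It had 0.789, 0.424 and 0.568 CPM in KO 1 to KO 3, against 5.15, 0.794 and 2.67 CPM in WT 1 to WT 3. The highest knockout library, KO 1, was nearly level with WT 2, so the groups were only just apart. Cdc20 fell by 2.27 ± 0.64 on the log2 scale (SE, edgeR adjusted p = 0.0421). Ube2c, the ubiquitin-conjugating enzyme of that complex, had −1.43 ± 0.51 (adjusted p = 0.0832) and overlapped between groups; 22.8% of its exon bases overlap Tnnc2 on the opposite strand. Cdca3, an adaptor that promotes mitotic entry, had 1.07, 0.947 and 0.904 CPM in KO 1 to KO 3, against 3.11, 0.948 and 1.72 CPM in WT 1 to WT 3 (−0.98 ± 0.43, edgeR adjusted p = 0.137).

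**Figure D3:**
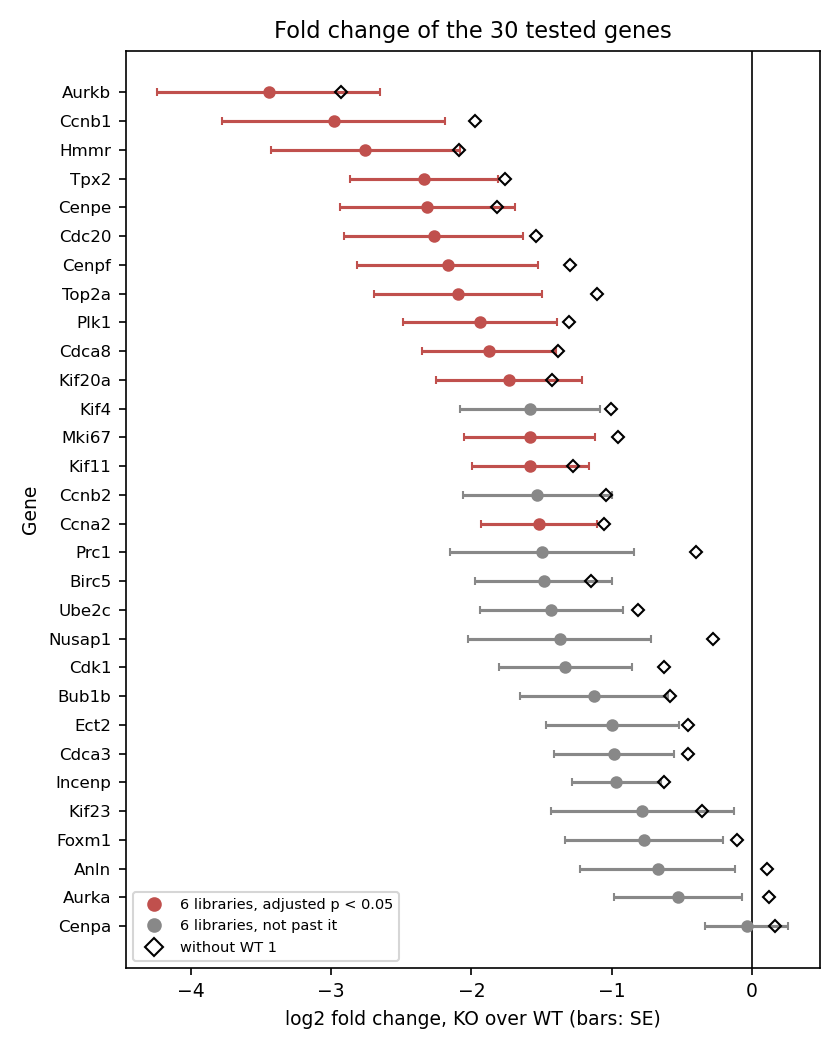
Fitted log2 fold change of the 30 tested mitosis genes, knockout over wild type, with bars of 1 standard error, sorted by size; filled points use all 6 libraries (red where the adjusted p was below 0.05) and open diamonds leave out WT 1. All 30 filled points lie below 0, from −3.44 for Aurkb to −0.04 for Cenpa, and most diamonds lie closer to 0, with Aurka, Anln and Cenpa above it.

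In 7 of the 9 role groups the summed level of every wild-type library was above that of every knockout library. The groups share the same 6 libraries, so they are not separate observations. Among single genes tested, 22.0% lay in this way. The margin was slight for some groups, such as ubiquitin-driven entry and exit (2.44 CPM in KO 1, 2.51 CPM in WT 2). For others it was wider, such as the cyclins and their kinase (2.44 CPM in KO 2, 3.49 CPM in WT 2). The regulator and proliferation markers (Foxm1, Mki67 and Top2a) summed to 3.14 ± 0.429 CPM in knockout and 9.86 ± 7.25 CPM in wild type (SD, n = 3 each). The chromosomal passenger complex summed to 2.45 ± 0.480 CPM in knockout and 6.76 ± 3.17 CPM in wild type. The centromere and kinetochore genes, with Cenpa among them, summed to 4.01 ± 0.843 CPM in knockout and 7.02 ± 3.83 CPM in wild type. For that group, and for the central spindle genes, the summed level in WT 2 was below every knockout library. An exact permutation test of 3 against 3 libraries cannot give a two-sided p below 0.1, so no test was run on these sums.

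Promoter matches were also counted by call. Of the 10 called genes with a promoter entry, all 10 held CCAAT, 7 held at least 2 and 4 held TTTGAA or TTCGAA. Of the 18 other genes with an entry, 13 held CCAAT, 10 held at least 2 and 6 held either homology element. The 5 without CCAAT in the window were Anln, Birc5, Ndc80, Nuf2 and Nusap1. These counts were not tested.

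Genes of the same processes outside the 34 were read from 8 lists with 197 genes, of which 178 were tested, 32 were lower and 16 higher; each count below is to be read against the 10.6% called lower and 9.80% called higher over all genes tested. Spindle, centrosome and cytokinesis genes had 6 of 29 lower and 0 higher, with a median log2 fold change of −0.77, against −0.02 over all genes tested. Aspm, which focuses spindle poles (−2.00 ± 0.40, adjusted p = 0.0147), and Kif20b, a cytokinesis motor (−1.99 ± 0.45, adjusted p = 0.0200), were 2 of those named by lowest p. Condensin and cohesin genes, which shape and hold chromosomes, had 6 of 20 lower and 0 higher (median −0.35). They included the condensin subunit gene Ncapd2 (−1.18 ± 0.26, adjusted p = 0.0192) and the cohesin acetyltransferase gene Esco2 (−2.42 ± 0.56, adjusted p = 0.0225). Other calls of this list were smaller: Stag1 (−0.52 ± 0.11, edgeR adjusted p = 0.0159) and Pds5a (−0.44 ± 0.10, edgeR adjusted p = 0.0205).

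Other lists were mixed. Centromere and kinetochore genes had 6 of 26 lower and 4 higher: Mis12, a kinetochore linker, fell to 10.9, 13.5 and 11.7 CPM in KO 1 to KO 3, against 23.5, 26.5 and 22.5 CPM in WT 1 to WT 3 (−1.01 ± 0.13, adjusted p = 0.00416). The 3 wild-type libraries agreed closely for Mis12, unlike for the mitosis genes. Mis18a, which helps to load CENP-A, rose (1.35 ± 0.20, adjusted p = 0.00629). Mitotic entry genes had 4 of 18 lower and 3 higher; the strongest was Wee1, the kinase that holds Cdk1 inactive, which had 5.24, 6.26 and 3.98 CPM in KO 1 to KO 3, against 0.909, 0.871 and 1.11 CPM in WT 1 to WT 3 (2.42 ± 0.26, adjusted p = 0.00227). Checkpoint and anaphase-promoting complex genes had 3 of 24 lower and 1 higher (median −0.17).

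DREAM and MuvB genes had 4 of 15 lower and 0 higher (median −0.52), among them Rbl1, the p107 pocket protein (−1.31 ± 0.28, adjusted p = 0.0176). Genes of G0 and cell cycle inhibitors had 2 of 16 lower and 4 higher (median 0.25); Btg1, an antiproliferative gene, rose (1.70 ± 0.21, adjusted p = 0.00332). Replication genes, which act in S phase before the mitosis genes peak, had 1 of 30 lower and 4 higher. Rrm2, a ribonucleotide reductase subunit, rose, with 21.8, 29.2 and 12.9 CPM in KO 1 to KO 3, against 7.71, 6.05 and 3.86 CPM in WT 1 to WT 3 (1.86 ± 0.35, adjusted p = 0.0138). At most 4 called genes per list, by lowest p, were eligible for naming. These 32 genes, lower or higher, are not the same as the 32 lower calls. Of the eligible genes, 8 kept their call in all 6 fits that left out 1 library. Mis12, Zw10 and Ccnf were lower, and Mis18a, Spc24, Wee1, Cks2 and Btg1 were higher. Among the 197, the order WT 1, WT 3, WT 2 held for 23 of 35 spindle genes and 17 of 35 centromere genes. It also held for 17 of 30 replication genes, 9 of 20 mitotic entry genes and 8 of 21 condensin and cohesin genes. The DREAM and MuvB list had 4 of 15, the checkpoint list 3 of 24 and the G0 and inhibitor list 3 of 17. Over all genes tested, this order held for 16.9%.

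Markers of other liver cell types moved with the mitosis genes in part. All 6 Kupffer cell markers, genes of the resident liver macrophage, kept the order WT 1, WT 3, WT 2, against 16.9% of all genes tested. Their summed level was 44.0, 46.9 and 34.9 CPM in KO 1 to KO 3, against 178, 73.0 and 134 CPM in WT 1 to WT 3. Of the 6, Clec4f, Cd5l and Vsig4 fell (−1.62 ± 0.26, −1.89 ± 0.35 and −1.15 ± 0.32, edgeR adjusted p = 0.00870, 0.0135 and 0.0397). Marco, Adgre1 and Timd4 did not pass (edgeR adjusted p = 0.0615, 0.0610 and 0.234). Over all genes tested, 10.6% were called lower. Clec4f kept its call whichever library was left out; Cd5l lost it without KO 1 or KO 3, and Vsig4 without any library other than WT 2.

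Markers of neutrophil precursors, cells that divide in marrow, summed to 3.56, 3.69 and 4.71 CPM in KO 1 to KO 3, against 11.6, 1.74 and 5.16 CPM in WT 1 to WT 3. Of these 7 genes, 3 were tested and 0 called; Mpo was at 0 in KO 1, KO 3, WT 2 and WT 3, and Ctsg in all 3 knockout libraries and WT 2. Monocyte markers summed to 43.0, 49.8 and 46.2 CPM in KO 1 to KO 3, against 63.6, 22.2 and 27.6 CPM in WT 1 to WT 3, so their sum also had the order WT 1, WT 3, WT 2. Sinusoidal endothelial markers summed to 83.9 to 119 CPM in knockout and 105 to 137 CPM in wild-type libraries, and stellate markers summed to 108 to 238 CPM in knockout and 162 to 247 CPM in wild-type libraries. Other lists had higher sums in the knockout. T and NK cell markers summed to 1.82 to 3.72 CPM in knockout and 0.743 to 0.909 CPM in wild type. B and plasma cell markers summed to 7.02 to 10.6 CPM in knockout and 0.615 to 1.41 CPM in wild type. The order WT 1, WT 3, WT 2 was thus not particular to Kupffer cell and neutrophil precursor markers. It also held for the sums of stellate markers (247, 162 and 185 CPM in WT 1 to WT 3), T and NK markers, and B and plasma markers. Among single genes it held for 2 of 6 stellate, 1 of 4 monocyte, 1 of 6 T and NK, and 3 of 5 B and plasma markers. Cholangiocyte markers summed to 121.5 to 312 CPM in knockout and 80.4 to 109 CPM in wild type. Erythroid genes summed to 831 to 1105 CPM in knockout and 271 to 381 CPM in wild type, mostly globin. The single erythroid genes were split: of 6 tested, 3 were called higher and 1 lower. Over all genes tested, 9.80% were called higher and 10.6% lower. The fold change was negative for 3 of the 6 erythroid genes. Mature neutrophil markers summed to 78.0, 108 and 100 CPM in KO 1 to KO 3, against 117, 38.3 and 18.2 CPM in WT 1 to WT 3. The part of any of these cells in the mitosis gene levels was not tested.

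**Figure D4:**
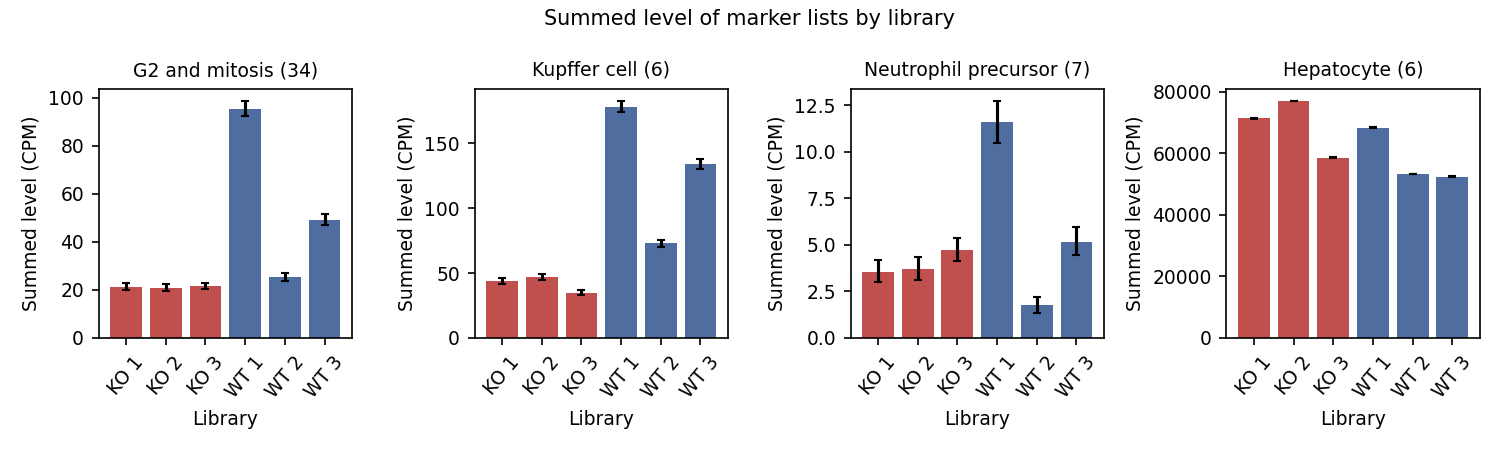
Summed CPM by library for the 34 mitosis genes, 6 Kupffer cell markers, 7 neutrophil precursor markers and 6 hepatocyte markers, each on its own axis from 0, with knockout libraries (red) left of wild-type libraries (blue) and bars of 95% exact Poisson intervals. The Kupffer sum was 34.9 to 46.9 CPM in the knockout libraries and 178, 73.0 and 134 CPM in WT 1 to WT 3, in the same order as the mitosis genes.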

How the data were processed

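Poly(A) RNA of mouse liver was sequenced in 3 knockout and 3 wild-type libraries, and the authors deposited 1 table for 45706 genes in these 6 libraries. From its values, it holds expected counts (estimated, not all whole), which the authors deposited without scaling to a common total; the submitters' processing notes name Trim Galore, STAR, Salmon and GRCm38, with no role or order. The sources used here give no versions, annotation or strand setting. Of the values, 8.38 to 9.32% per library were not whole, and they were rounded to whole numbers. Gene positions and exon overlaps come from GENCODE M21.

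Genes were kept by edgeR's filterByExpr and scaled by TMM, and 14069 were tested by quasi-likelihood F test (two-sided; edgeR 4.0.16, R 4.3.3), genotype as the single term, adjusted by Benjamini-Hochberg over all genes tested. The SE is the size of the log2 fold change over the root of F. CPM are counts per 1000000 TMM-scaled counts. The fit was tested on simulated data. Alternatives were RLE, upper-quartile and total scaling, no or a stricter filter, DESeq2 1.42.0, limma 3.58.1 voom, a replicate block and leaving out each library.

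The 34 genes and all lists were chosen with earlier results of these data known. Called genes, and the 3 with the highest wild-type level per length, were to be given in every library; values of further members were added after they were seen. Of each wider list at most 4 called genes, by lowest p at a mean log2 CPM of at least 0, were eligible for naming. No library pair of a group agreed within sampling noise. Low counts per gene limit precision.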

Additional observations from a re-analysis of the deposited data

How the results depend on the processing

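Fold changes of the 34 genes stayed negative for most genes in each setting, but the number of calls moved. Against 14 called lower, the count was 2 of 7 with the filter of 50 counts in 3 libraries (11.8% of all genes in that fit), 6 with limma voom (9.99%), and 0 to 25 when 1 library was left out. It was 12 with RLE scaling (9.56%), 19 with DESeq2 (12.3%), 15 of 34 with no filter (6.47%) and 14 with upper-quartile or total scaling (12.4% and 11.2%). With no filter the called genes also changed: Ccnb1, Cdc20, Mki67 and Top2a lost their calls. Birc5, Bub1, Kif4, Nuf2 and Ttk were called there instead. No setting called any of the 34 genes higher. The count without overlap, 19, ran from 19 to 31 over the omissions, against 23.6 to 29.8% of all genes tested. The median excess of WT 1, 2.63, was 2.39 over the 7 genes with 50 counts in 3 libraries. In the wider lists the 32 lower calls ran from 3 to 50, and the 16 higher from 5 to 16, when 1 library was left out. Few fold changes changed sign: without WT 1, Aurka was at 0.12, Anln at 0.10 and Cenpa at 0.17; Cenpa was also at 0.01 without WT 3, 0.07 without KO 1 and 0.05 without KO 3. The lowest values over the omissions were −0.88 for Aurka, −0.27 for Cenpa and −1.05 for Anln. The cause of these shifts was not tested. With library totals the median of all genes was −0.10 (log2), against −0.02 in the main fit.

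The replicate numbers did not pair the libraries: same-numbered libraries correlated at −0.0762, 0.0126 and −0.0853 in their deviations from the group means. No knockout library correlated best with the wild-type library of its own number. With a replicate block, 6 of the 34 genes were lower (4.70% of all genes), and 11 of the wider lists were lower and 8 higher. Depth limits every single gene, since a member had a median of 19 counts in knockout and 46.5 in wild-type libraries.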
